A study of Rattus norvegicus with 12 samples.

Results

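Translation initiation and elongation factors were examined in the cortex of aged and young rats. The genes were taken by symbol, as every gene whose platform symbol starts with Eif1 to Eif6 or with Eef1 or Eef2, leaving out the Eif2ak kinases, and where a gene had several probe sets the brightest on average was used. This gave 56 genes out of 14218 with a single symbol, and all 56 passed the filter on low signal (log2 signal above 4.3 on at least 3 arrays) that left 13254 genes for testing. The 56 include 46 core factors, and the other members are regulators, a kinase and modifying enzymes that share the prefix. Eif5 and Eif3e were represented only by probe sets that carry several symbols, and they were not analysed here, nor were Eif1 and Eif3g.

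The study asked how age, water maze performance and deep sleep relate to gene expression in a cortical region beneath EEG electrodes. Only age is compared here. Aged male Fischer 344 rats (21 months in the design, 21 to 23 months in the labels, n = 6) were compared with young males of the same strain (3 months in the design, 3 to 5 months in the labels, n = 6). Every rat, aged or young, carried an implanted telemetry emitter for EEG and EMG, was trained in a water maze and was killed with CO2 and decapitation straight after the probe trial, so there was no untrained or unoperated group. RNA of each rat was hybridised to its own Affymetrix RAE230 2.0 array, and the region is called parietal cortex in the sample titles and frontal cortex in the tissue label.

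Protein synthesis starts when eIF2 brings the initiator tRNA to the small ribosomal subunit, where eIF1, eIF1A and the large eIF3 complex prepare it for scanning. The cap-binding protein eIF4E, the scaffold eIF4G and the helicase eIF4A, together called eIF4F, bring in the mRNA, and eIF2B recharges eIF2 with GTP. During elongation eEF1A delivers aminoacyl-tRNAs, the eEF1B complex recharges it, and eEF2 moves the ribosome along. In neurons these steps are controlled mainly through phosphorylation of eIF2, of the 4E-BPs that hold eIF4E, and of eEF2, and mRNA arrays do not measure phosphorylation.

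No factor gene passed the test of age after adjustment over all genes. At an adjusted p under 0.05 (limma, Benjamini-Hochberg over 13254 genes), 0 of the 56 genes passed, beside 0.0528% of all genes tested. At an unadjusted p up to 0.05, 1 gene was higher in aged cortex (Eif4ebp1, beside 6.47% of all genes tested) and 2 were lower (Eif4g3 and Eif1ad, 3.57% of the members, beside 2.62% of all genes). At the study's own threshold, an unadjusted p up to 0.01, Eif4ebp1 and Eif4g3 passed, which is 3.57% of the members beside 2.52% of all genes. With the methods' t-test in place of limma, 3 genes passed it.

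The differences were small. Of the 56 genes, 25 had a higher and 31 a lower mean log2 signal in aged cortex, with a median log2 fold change (aged minus young) of -0.024 and a range of -0.22 to 0.37. For comparison, 7542 of all genes tested had a higher mean and 5712 a lower one, and their median was 0.024. That median varied with brightness. With all genes divided by mean signal into 4 equal groups it was 0.16 in the dimmest and -0.018 in the brightest group, and 36 of the 56 factors lay in the brightest group, where 59.1% of all genes were lower in aged cortex, against 55.4% of the factors. The factors' median was sensitive to single rats, at 0.0039 without aged rat 6 and -0.038 without young rat 5. A log2 fold change over 0.2 in size was found for 3 genes, Eif4ebp1, Eif4g3 and Eif4e3, and 42 of the 56 were under 0.1.

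The size of each difference was bounded by its interval. The 95% confidence interval of the age difference lay wholly within 0.32 of 0 on the log2 scale for 45 of the 56 factors (80.4%, against 44.7% of all genes tested) and within 1.5-fold for 55 of them (98.2%, against 72.5%). All 56 were bounded within 2-fold, against 86% of all genes, and the single gene outside 1.5-fold was Eef1akmt4, an eEF1A lysine methyltransferase with a low signal and a standard error of 0.29. Within an age group the factors had a median SD of 0.12 on the log2 scale, against 0.20 for all genes tested and 0.12 for the brightest group. The most variable factors between rats of one age were Eef1akmt4 (SD 0.53) and Eif2a (SD 0.38), an alternative initiator tRNA carrier.

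**Figure D1:**
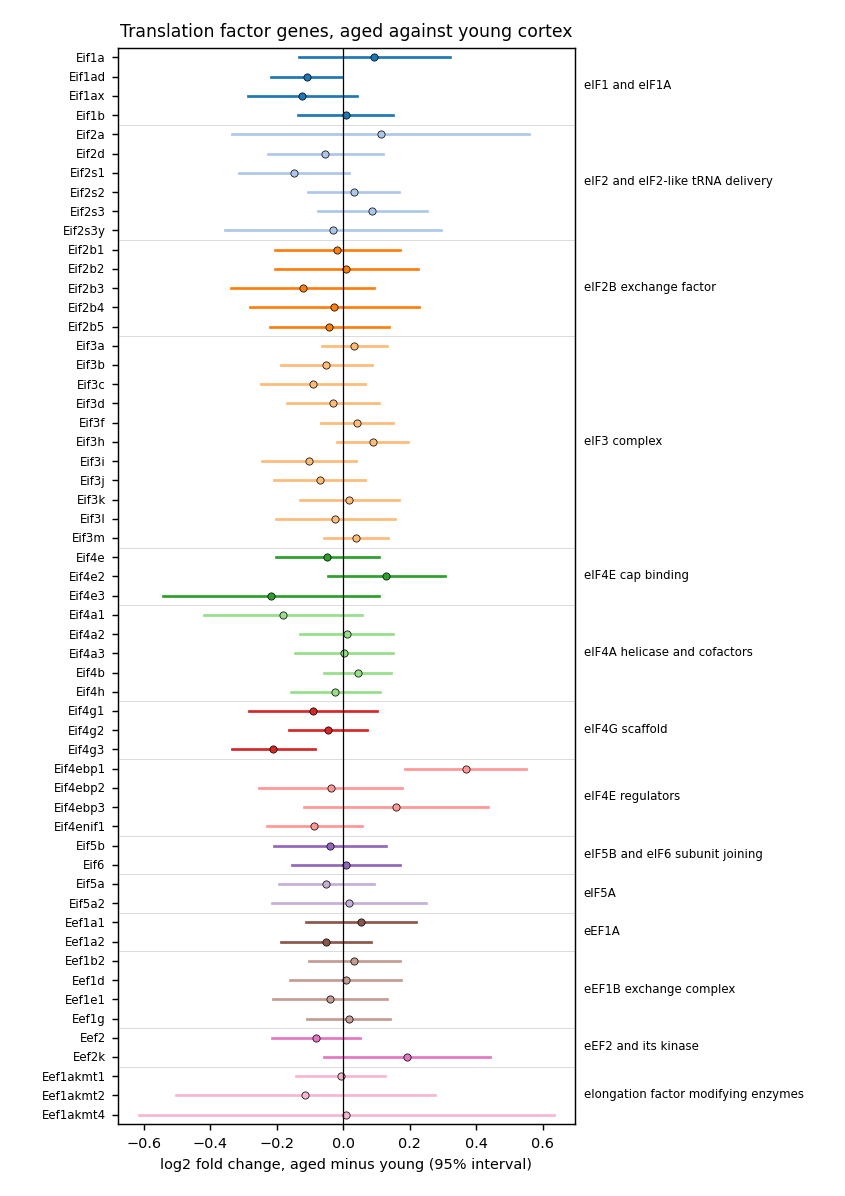
Log2 fold change (aged minus young, horizontal axis) with its 95% confidence interval from limma for each of the 56 genes, grouped by factor complex. The interval crosses 0 for 53 genes, and those of Eif4ebp1, Eif4g3 and Eif1ad do not.

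Members of the eIF4F axis held both of the smallest p-values. Eif4ebp1 encodes 4E-BP1, which in its unphosphorylated form binds eIF4E and keeps it from eIF4G. Its signal in aged cortex had a lowest value of 233, a median of 269 and a highest of 305, against 196, 202 and 242 in young cortex. The groups overlapped only through young rat 4, at 242, which lay above aged rats 3 (241) and 4 (233), and all 6 aged rats lay above the young mean. The mean was 269 ± 29.7 in aged and 208 ± 17.3 in young cortex (SD, n = 6 each), a 1.29-fold difference and a log2 fold change of 0.37 (SE 0.083, 95% interval 0.19 to 0.55). By limma the adjusted p was 0.192 (unadjusted 0.000867), rank 60 among all genes tested. When each rat was left out in turn the log2 fold change stayed between 0.33 and 0.41. The array names carry codes that fall into a lower series (4 aged and 3 young rats) and a higher series (2 aged and 3 young rats), and the difference was 0.32 within the lower and 0.49 within the higher.

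Eif4g3 encodes eIF4G3, a paralog of the main eIF4G scaffold. Its signal in aged cortex had a lowest value of 1497, a median of 1604 and a highest of 1787, against 1828, 1868 and 2016 in young cortex. Every aged rat was below every young rat, a split that 2 of the 56 factors showed (Eif4g3 and Eif1ad, 3.57%, beside 0.241% of all genes tested), while the opposite split was shown by 0 factors, beside 0.536% of all genes. The mean was 1632 ± 118 in aged and 1886 ± 69.7 in young cortex, a ratio of 0.864 and a log2 fold change of -0.21 (SE 0.057, adjusted p = 0.294 by limma). The log2 fold change was -0.25 within the lower code series and -0.11 within the higher. A second probe set of the gene was above the signal cutoff on 0 arrays, with means of 8.21 in aged and 4.42 in young cortex, and averaging both probe sets turned the sign to 0.40.

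Eif1ad encodes a protein with an eIF1A-like domain. Its lowest, median and highest signals were 760, 872 and 885 in aged cortex, against 902, 920 and 941 in young cortex. The groups did not overlap, and aged rat 6, at 760, lay far below the other aged rats. The mean was 852 ± 46.7 in aged and 919 ± 14.3 in young cortex, with a log2 fold change of -0.11 (SE 0.049, unadjusted p = 0.0432, adjusted p = 0.532 by limma). The log2 fold change was -0.078 without aged rat 6. The unadjusted p (limma) was over 0.05 in 9 of the 12 single-rat omissions, those of aged rats 1, 5 and 6 and of each young rat.

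**Figure D2:**
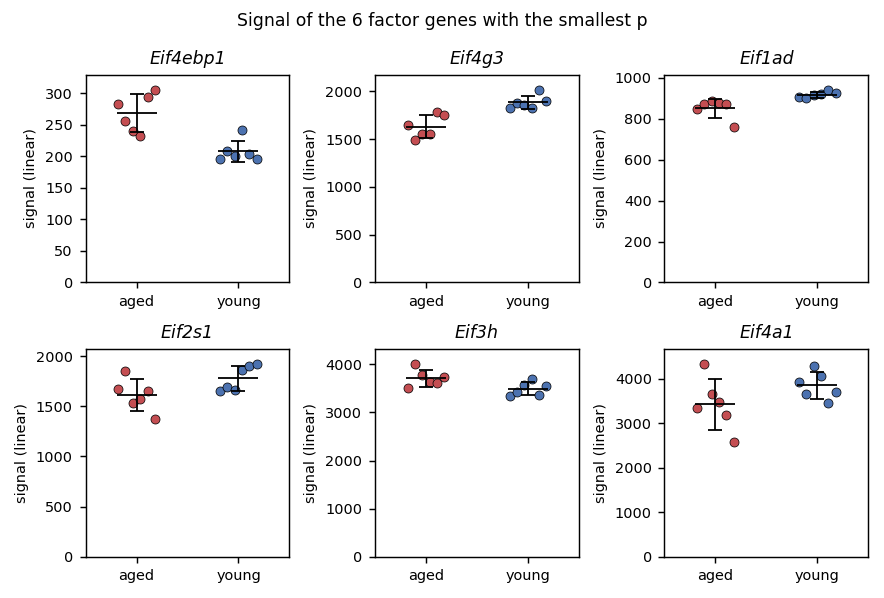
Linear array signal (vertical axis, from 0) of each rat for the 6 genes with the smallest limma p, aged rats on the left and young rats on the right, with the mean and SD of 6 rats. Aged and young points do not overlap for Eif4g3 and Eif1ad, and overlap through 1 young rat for Eif4ebp1.

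None of the other cap-binding and scaffold genes had an unadjusted p up to 0.05. Eif4g1, the main scaffold, had a log2 fold change of -0.092 (SE 0.088, adjusted p = 0.798 by limma), and its 3 other probe sets were also lower in aged cortex, at -0.058 to -0.18, none with an unadjusted p up to 0.05. Eif4g2, a relative that lacks the eIF4E-binding part and supports initiation without the cap complex, had -0.047 (SE 0.053). All 3 eIF4G genes therefore had a negative fold change, with a median of -0.092, although Eif4g1 had 0.020 in the higher code series alone. Among the cap-binding proteins, Eif4e had -0.049 (SE 0.071), with a signal of 3330 to 4506 in aged rats and 3981 to 4529 in young rats. Eif4e2, which encodes the translational repressor 4EHP, had 0.13 (SE 0.080, adjusted p = 0.664), or 0.072 without aged rat 1, and Eif4e3, an atypical cap binder, had -0.22 (SE 0.15, adjusted p = 0.687). The Eif4e3 groups overlapped widely, at 290 to 473 in aged and 311 to 510 in young rats, its second probe set gave 0.0033, and its log2 fold change was -0.14 without young rat 5.

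The other 4E-BP genes did not pass the test. Eif4ebp2, the main 4E-BP of the brain, had a log2 fold change of -0.038 (SE 0.098, adjusted p = 0.947 by limma), at 505 to 758 in aged and 657 to 751 in young rats. Its lowest value belonged to aged rat 2, and without that rat the fold change was 0.051. Eif4ebp3 had a log2 fold change of 0.16 (SE 0.13) and ranged from 226 to 426 in aged rats, which enclosed all 6 young rats at 274 to 298. The fourth eIF4E regulator, Eif4enif1, a transporter that moves eIF4E into the nucleus, was at 589 to 771 in aged and 709 to 748 in young rats.

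The eIF4A helicases unwind mRNA leaders. Eif4a1 ranged from 2578 to 4327 in aged rats and from 3462 to 4281 in young rats, with means of 3426 ± 575 in aged and 3850 ± 299 in young cortex (log2 fold change -0.18, SE 0.11, adjusted p = 0.652 by limma). Both extremes of Eif4a1 came from aged rats, with rat 6 lowest and rat 2 highest. The log2 fold change was -0.10 without aged rat 6 and -0.25 without aged rat 2, and it was -0.099 within the lower code series and -0.39 within the higher. Eif4a2, the paralog that is abundant in brain, had a log2 fold change of 0.010 (SE 0.064), at 11866 to 13807 in aged and 11634 to 13942 in young rats. Of the cofactors, Eif4b had 0.043 on its brighter probe set and 0.18 (SE 0.082, unadjusted p = 0.0443) on its dimmer one. That was the only one of the 32 other probe sets of factor genes with an unadjusted p up to 0.05, and 30 of the 32 passed the signal cutoff. With every probe set tested on its own, 1618 of 19256 over the whole array had an unadjusted p up to 0.05.

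Genes of the initiator tRNA step stayed close to 0 as a group. Over the 6 genes of eIF2 and eIF2-like tRNA delivery the median log2 fold change was -0.00053, with 3 higher and 3 lower. Eif2s1, which encodes the alpha subunit whose phosphorylation slows initiation under stress, was at 1375 to 1853 in aged and 1654 to 1918 in young rats, with means of 1610 ± 159 in aged and 1780 ± 125 in young cortex (log2 fold change -0.15, SE 0.076, adjusted p = 0.587 by limma). Only 1 of 6 aged rats lay above the young mean, although the ranges overlapped. The log2 fold change of Eif2s1 was -0.012 within the lower code series and -0.33 within the higher. The beta and gamma subunit genes, Eif2s2 and Eif2s3, had fold changes of 0.030 and 0.087. Of the 5 eIF2B genes 4 were lower, with a median of -0.027, and the one with the smallest p was Eif2b3, a subunit of the catalytic part, at -0.12 (SE 0.098, adjusted p = 0.743), or -0.056 without aged rat 6. In the eIF1 and eIF1A group, Eif1ax had -0.12 (SE 0.075, adjusted p = 0.656) and Eif1a 0.093.

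The eIF3 complex, the scaffold of the scanning ribosome, was measured through 11 subunit genes. Of these, 5 were higher and 6 lower, with a median of -0.024 and a range of -0.10 to 0.088. Eif3h, a subunit outside the functional core, was at 3501 to 4002 in aged rats and 3346 to 3700 in young rats, with means of 3711 ± 173 in aged and 3491 ± 138 in young cortex (log2 fold change 0.088, SE 0.049, adjusted p = 0.631 by limma). All 6 aged rats lay above the young mean of Eif3h, but the ranges overlapped. Eif3i, a WD-repeat subunit, had the most negative value of the complex at -0.10 (SE 0.065, adjusted p = 0.663), or -0.068 without aged rat 6. The remaining 9 subunits lay between these values.

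Late initiation factors and eIF5A were also close to 0. Eif5b, the GTPase that joins the large subunit, had a log2 fold change of -0.040 (SE 0.077), and without aged rat 2, its lowest at 744, it had 0.023. Eif5a, which helps ribosomes past difficult peptide stretches and carries the modified amino acid hypusine, had -0.052 (SE 0.065), at 3457 to 4264 in aged and 3914 to 4613 in young rats.

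The elongation factor genes themselves had small differences. Eef1a1, the widely expressed eEF1A gene, was at 12354 to 15410 in aged and 11991 to 14789 in young rats (log2 fold change 0.053, SE 0.076, adjusted p = 0.887 by limma). Its probe set is of a type that can hybridise to several near-identical transcripts, so the value may include copies of the gene. Eef1a2, the paralog of mature neurons and muscle, was at 4412 to 5609 in aged and 4904 to 5662 in young rats (log2 fold change -0.051, SE 0.062, adjusted p = 0.859). In the eEF1B exchange complex 3 of 4 genes were higher and the median was 0.011, with Eef1b2 at 0.033 (SE 0.063). Eef2 was at 5442 to 6548 in aged and 5779 to 6896 in young rats (log2 fold change -0.083, SE 0.060, adjusted p = 0.714).

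The kinase that phosphorylates and slows eEF2, Eef2k, was the elongation gene with the smallest p. Its signal was 186 to 276 in aged and 173 to 223 in young rats, with means of 230 ± 37.9 in aged and 200 ± 21.4 in young cortex (log2 fold change 0.19, SE 0.11, adjusted p = 0.652 by limma). The groups overlapped, with 4 of 6 aged rats above the young mean. Of its 3 other probe sets, the 2 that passed the cutoff had 0.13 and 0.40 (unadjusted p = 0.0564), and the one below the cutoff had -0.19. Of the modifying enzymes, Eef1akmt2 had the smallest p, with -0.12 (SE 0.18).

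Where a gene had several probe sets they did not always share a sign. Of 23 such genes, 12 had one sign on all their probe sets and 11 had both. The second probe set of Eef1a1 gave 0.00011 and that of Eif4a2 -0.052. For Eif5b the other probe sets gave 0.044 and -0.079, for Eif4g2 they gave 0.031 and -0.026, and for Eif4e -0.026 and 0.21, the last above the cutoff on 5 of 12 arrays. Dim second probe sets gave 0.61 for Eef1a2, with means of 14.8 in aged and 13.5 in young cortex, 0.13 for Eef2, at 30.6 in aged and 29.4 in young, and 0.34 for Eif3h, at 32.9 in aged and 26.4 in young. The signal cutoff is 19.7. Values of this size were also found far above it, with 0.20 on the second probe set of Eef1g, at 256 in aged and 221 in young cortex, beside those of Eef2k and Eif4b given above.

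Many mRNAs of the translation machinery start with a C followed by a run of pyrimidines, the 5′ terminal oligopyrimidine (TOP) motif, through which mTOR and LARP1 set their translation. Bases around the annotated start of elongation factor genes are shown because this motif is a known mark of these mRNAs. Set beside them are 2 genes without a run. The windows hold 20 bases before and 10 from the RefSeq start onwards on build GRCr8, 5′ to 3′ on the gene's strand, and capitals mark the longest run of a C followed by at least 5 further C or T.
Eef1a1: ggtagtcgccttggacgttCTTTTTCgcaa
Eef1b2: ggacttttccggccggtcccggCCCTTTTT
Eef1g: CCCCCTTTCTCTgcggaatcaccatggcgg
Eef1a2: tccctcgctcgggtacatctctgcagctgc
Eif4g3: aagctccgagcggccgtcctgccggactgc
These lie at chr8:88225060-88225089 (minus strand), chr9:72074071-72074100 (plus), chr1:215289795-215289824 (plus), chr3:188652624-188652653 (minus) and chr5:155481358-155481387 (plus). A run is present in the first 3 and in neither Eef1a2 nor Eif4g3. A RefSeq start can be off by some bases, and in Eef1g the run lies before the annotated start. Only the gene's own strand was searched. A start window was found for 51 of the 56 genes. Such a run lay anywhere in the window for 19 of them (37.3%), against 6047 of 27457 genes (22%). Most of each window lies before the start, so these are counts of runs and not of TOP motifs. The median log2 fold change was -0.0086 for factors with a run and -0.039 for those without, a description with no test.

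**Figure D3:**
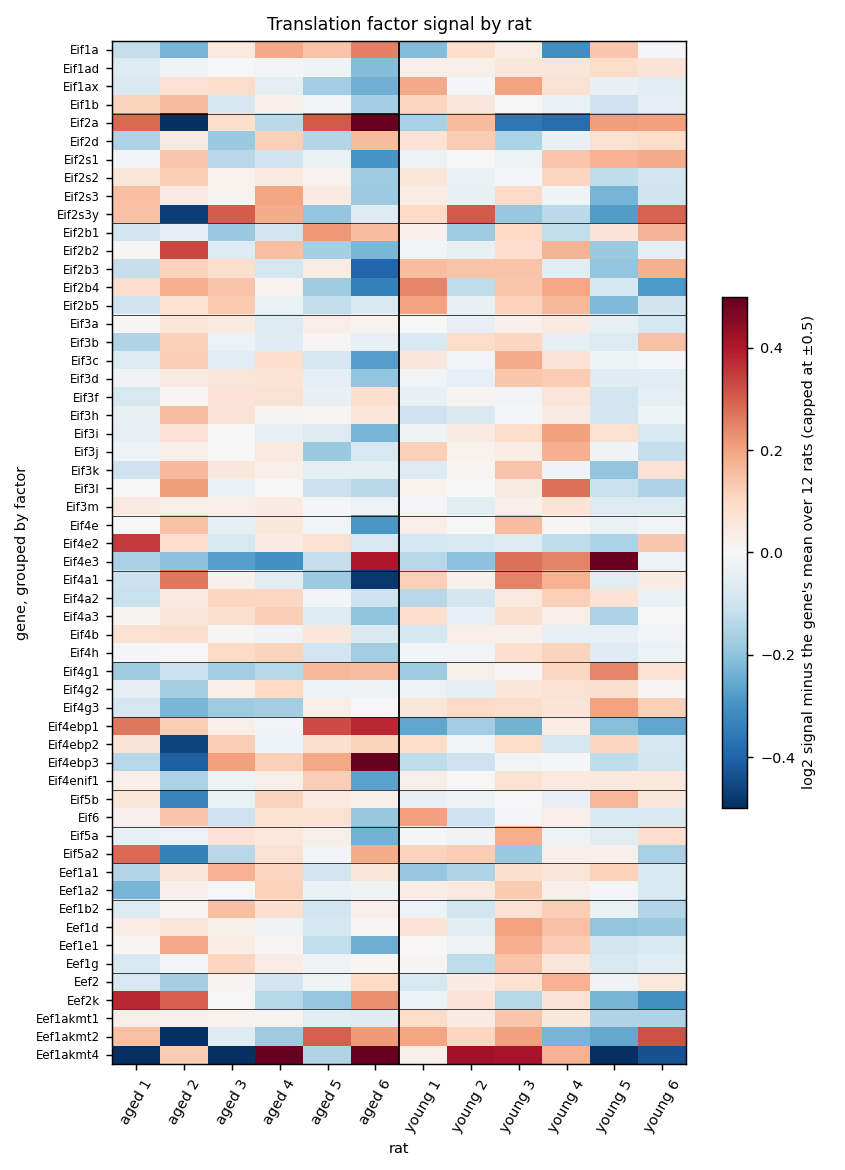
Log2 signal of each factor gene (rows, grouped by complex) in each rat (columns, aged 1 to 6 left of young 1 to 6), as the difference from that gene's mean over the 12 rats, with colours capped at 0.5 in either direction. Eif4ebp1 is mostly red in aged and blue in young rats, Eif4g3 the reverse, and most other rows vary more between rats than between ages.

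The factors were also followed rat by rat, as each gene's log2 signal minus its own mean over the 12 rats. The median over the 56 genes lay between -0.053 and 0.048 in aged rats and between -0.060 and 0.078 in young rats. The middle of these values was 0.00023 in aged and -0.00091 in young rats, and the ranges overlapped almost wholly. In aged rats 21 to 38 of the 56 genes lay above their own mean, and in young rats 17 to 42. The lowest medians belonged to aged rat 6 and young rat 5 and the highest to aged rat 2 and young rat 3. The median signal over the whole array was 168 to 194 in aged and 162 to 172 in young rats, highest in aged rat 6, and the part of this in the results was not tested.

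Ratios of paired factors were compared on the same array, so that an equal shift of a whole array drops out. A shift that varies with brightness does not drop out, and Eef2k was far dimmer than Eef2. Under quantile normalization the log2 fold changes were 0.14 for Eef2k and -0.069 for Eef2. The part of brightness in the ratios was not tested. Over 5 pairs, none had a Benjamini-Hochberg adjusted p under 0.05 (two-sided exact permutation tests of 6 against 6 rats, smallest possible p 0.00216). The kinase against its target, Eef2k minus Eef2, averaged -4.71 ± 0.27 in aged and -4.98 ± 0.16 in young rats (SD of the log2 ratio, n = 6 each), a difference of 0.27 (exact permutation p = 0.0606, adjusted p = 0.184), with 5 of 6 aged rats above the young mean and values of 0.26 within the lower code series and 0.21 within the higher. With the mean of each gene's probe sets the difference was 0.11. The helicase pair Eif4a2 minus Eif4a1 averaged 1.93 ± 0.20 in aged and 1.73 ± 0.13 in young rats, a difference of 0.19 (exact permutation p = 0.0736, adjusted p = 0.184), with 0.20 within the lower code series and 0.28 within the higher. Permuting rats within the code series gave an exact permutation p of 0.0171 for that pair, before adjustment. Over the 19 settings run for that pair, its adjusted permutation p was never under 0.0649 (without aged rat 2) and reached 0.633. The elongation pair Eef1a1 minus Eef1a2 averaged 1.45 ± 0.084 in aged and 1.35 ± 0.14 in young rats, a difference of 0.10 (exact permutation p = 0.147, adjusted p = 0.245). That difference was 0.23 in the lower series and -0.042 in the higher, so it did not hold within both. Eif4g1 minus Eif4g2 differed by -0.045 (exact permutation p = 0.621) and Eif4ebp2 minus Eif4e by 0.011 (exact permutation p = 0.942).

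**Figure D4:**
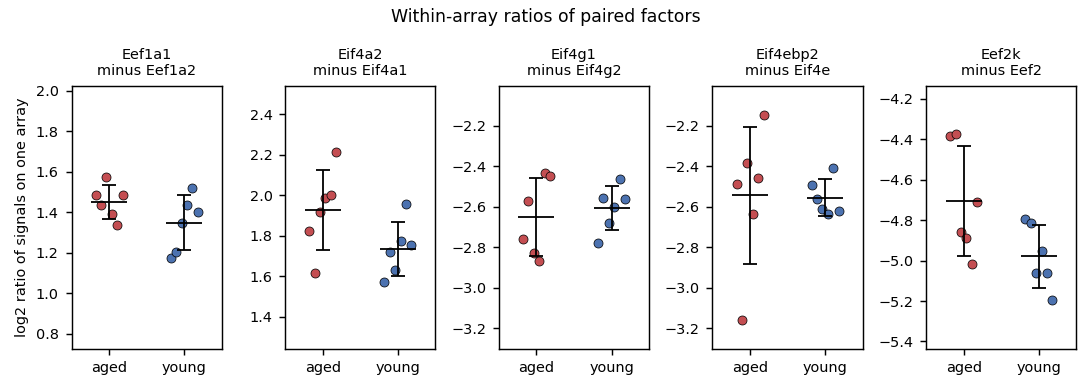
Log2 ratio of the signals of 2 genes on the same array (vertical axis) for each rat, aged on the left and young on the right of each panel, with the mean and SD of 6 rats and a window of equal height in all panels. The groups overlap in all 5 panels. The aged means lie higher for Eef2k minus Eef2, Eif4a2 minus Eif4a1 and Eef1a1 minus Eef1a2, and by only 0.011 for Eif4ebp2 minus Eif4e. The aged mean lies lower for Eif4g1 minus Eif4g2.

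Genes that act on or next to these factors were read from 6 lists. Over the 60 of their genes that were tested, 25 were higher and 35 lower in aged cortex (58.3% lower, beside 43.1% of all genes and 59.1% of the brightest group), and 0 passed the adjusted threshold by limma. At an unadjusted p up to 0.05 there was 1 higher (1.67%, beside 6.47% of all genes) and 4 were lower (6.67%, beside 2.62%). Among the eIF2 kinases and stress response genes (14 of 15 tested, median -0.020), Ddit3, which encodes the stress transcription factor CHOP, averaged 582 ± 36.7 in aged and 649 ± 31.7 in young cortex (log2 fold change -0.16, adjusted p = 0.438). The next smallest p-values belonged to the eIF2 kinases Eif2ak1, at -0.085 (adjusted p = 0.726), and Eif2ak4, at 0.082 (adjusted p = 0.796). Among the mTOR to eIF4E signalling genes (16 of 17 tested, median 0.021) none reached an unadjusted p of 0.05, and the 3 with the smallest p were Rps6 at 0.16 (adjusted p = 0.560), Mknk1 at 0.13 and Tsc1 at 0.12. Rps6 encodes a ribosomal protein phosphorylated downstream of mTOR, Mknk1 an eIF4E kinase and Tsc1 a brake on mTOR.

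Termination and recycling genes had 7 of 9 tested genes lower, with a median of -0.047. Pelo, which encodes a factor that rescues stalled ribosomes, averaged 357 ± 39.9 in aged and 438 ± 42.2 in young cortex (log2 fold change -0.30, SE 0.090, adjusted p = 0.355 by limma), at 294 to 412 in aged and 382 to 499 in young rats. Gspt1 and Gspt2, which encode the release factor eRF3, had -0.15 (adjusted p = 0.480) and -0.21 (adjusted p = 0.597). The list for eIF5A hypusination had 5 of 7 genes lower, with a median of -0.10. The 5 lower genes all belong to polyamine supply, while the enzymes that make hypusine itself, Dhps and Dohh, had 0.076 and 0.039. Its smallest p belonged to spermidine synthase, Srm, at -0.17 (adjusted p = 0.477), followed by spermine synthase, Sms, at -0.11 and ornithine decarboxylase, Odc1, at -0.10. For neuronal translational control 9 of 11 genes were tested, and Fxr2, a relative of the fragile X protein, had 0.25 (adjusted p = 0.504 by limma). Camk2a had -0.39 (SE 0.20, adjusted p = 0.578), with overlapping groups at 1470 to 2791 in aged and 2027 to 4069 in young rats. Fmr1 had -0.15 (adjusted p = 0.843). The poly(A)-binding genes had a median of 0.038 over 5 of 8 genes, with Paip2b at 0.096, Paip1 at 0.097 and Pabpc4 at 0.038.

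Because the tissue was bulk cortex, fewer cells of a type and less RNA per cell cannot be told apart. Over the 8 neuron markers, of which 6 were lower in aged cortex, the summed signal was 53045 to 59332 in aged and 53281 to 64937 in young rats. Over the 7 microglia markers, of which 6 were higher, it was 4014 to 8016 in aged and 3504 to 4774 in young rats, and over 6 of 7 oligodendrocyte markers, all higher, 32459 to 50935 in aged and 31184 to 45539 in young rats. The median log2 fold change was -0.071 for neuron, 0.024 for astrocyte and 0.21 for endothelial markers. Cortical markers were measured for 4 of 5 genes, and hippocampal, striatal, choroid plexus and meningeal markers were tested too. Not all of these were above the signal cutoff of 19.7 on average. The choroid plexus marker Kl averaged 15.1 in aged and 8.92 in young cortex. Another, Ttr, ranged from 77.8 to 629 in aged and from 89.3 to 1417 in young rats. Of the 4 meningeal markers 2 were higher and 2 lower. The smallest p among them was that of Lum, at 33.8 to 109 in aged and 108 to 133 in young rats. Its log2 fold change was -0.75 (SE 0.24, unadjusted p = 0.00837, adjusted p = 0.371 by limma). Of the 3 hippocampal markers 2 were higher and 1 lower, with a median of 0.30. The part of cell makeup in the factor results was not tested.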

How the data were processed

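Cortex RNA from 12 rats, 6 aged and 6 young as the labels group them, was measured on 12 arrays of 31099 probe sets. The authors deposited linear intensity values, which have a 2% trimmed mean near the target intensity of 500 named in the methods. MAS5, GCRMA and R 2.7.1 appear in the submitters' processing notes and gcRMA in the methods, but the sources used here do not give the order of the steps. The log2 of each intensity was taken, and genes were named from the platform annotation (20832 probe sets with 1 symbol, 436 with several and 9831 with none). The probe set with the highest mean stood for a gene if its log2 signal passed 4.3 on at least 3 arrays. The study picked 4.3 from a histogram of its own signal intensities, which its methods name as gcRMA values. On the deposited values 83.3% (young rat 3) to 87.1% (aged rat 6) of probe sets passed it, so the limit may not mean the same here. Two-sided limma tests (version 3.58.1, R 4.3.3) compared aged with young, p-values were adjusted by Benjamini-Hochberg across every tested gene, and the script was tested on simulated data. Pairs of genes were compared by exact permutation tests over rats.

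The members, lists and pairs were chosen with earlier results of these data known. Named with values were the 12 genes with the smallest p, those at an unadjusted p up to 0.05, the pair members, the smallest p in each role group and the 3 smallest in each pathway list. Other genes with values (Eif4b, Eif2s2, Eif2s3, Eif1a, Eif4ebp3, Eif4enif1, Eef1g, Dhps and Dohh) were chosen after their values were seen. Rats of one age are separate animals. The number of arrays, 6 per age, limits the precision. Alternatives covered normalisation, filter, choice of probe set, variance model, signal offset, code series, replicate block and leaving out each rat. Start sequences are from RefSeq (GRCr8).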

Additional observations from a re-analysis of the deposited data

Results flagged for a closer look

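Among the 24 named factors and the paired ratios, 58 groups of 6 rats were checked for a single rat far from the other 5. There were 8 such values. Chance alone marks about 1 in 20 independent groups of normal values. These groups share the same rats, and no rate over all genes is given, so 8 cannot be called many or few. For Eif4ebp1, young rat 4 had a signal of 242 while the other young rats lay at 196 to 208. For Eif1ad, aged rat 6 had 760 and the other aged rats 847 to 885. For Eif4e2, aged rat 1 had 502 with the others at 372 to 417, and young rat 6 had 433 with the others at 353 to 375. For Eif4e3, aged rat 6 had 473 with the others at 290 to 329. For Eif4ebp2, aged rat 2 had 505 with the others at 683 to 758. For Eif4e, young rat 3 had 4530 with the others at 3980 to 4170. For Eif5b, aged rat 2 had 744 with the others at 918 to 1010. Aged rats 2 and 6 each account for 2 of the 8 values.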

How the results depend on the processing

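No factor passed the adjusted threshold under any alternative. The count lower in aged at an unadjusted p up to 0.05 (2) was 4 under median centring, with code series as a block and without aged rats 2 and 6 together (chosen after seeing the data), and 1 with the mean of probe sets, every probe set, an intensity trend with robust variances, the lower code series alone, log2 of signal plus 16 and core factors only. The count higher (1) was 2 under quantile normalization, every probe set, the methods' t-test, the higher code series alone and without aged rats 2 and 6 together, and 0 with core factors only. The count at p up to 0.01 (2) was 1 with the mean of probe sets and with core factors only, 0 in the higher code series and 3 with the methods' t-test. Array weights gave 3 genes lower. Over all genes tested, in both directions, the count at an unadjusted p up to 0.05 moved too. It was 1205 of 13254 in the main fit, 1296 of 13255 under median centring and 1345 of 13254 with code series as a block. It was 1364 of 13254 with array weights, 612 of 12854 in the lower code series and 994 of 12720 in the higher. Quantile normalization gave 1054 of 13255, the methods' t-test 1210 of 13254 and an intensity trend with robust variances 1231 of 13254. Log2 of signal plus 16 gave 1294 of 14140, the mean of probe sets 1201 of 13119 and every probe set 1618 of 19256. Under the alternatives no share of all genes is given by direction or at p up to 0.01, so those member counts have no like comparison. The median of -0.024 was -0.094 under median centring, which also moved the median of all genes to -0.047, against 0.024. It was -0.0021 with array weights, -0.010 with the mean of probe sets and -0.038 to 0.0039 with 1 rat left out. Leaving out 1 rat gave 1 to 4 genes lower and 1 to 2 higher, with 4 lower and 2 higher without aged rat 2. The cause was not tested.

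Same-numbered aged and young rats correlated at -0.039 to 0.16, over 0.1 for 4 of 6 numbers, and 9 of 12 rats correlated best with their own number. The design names no pairing. Same-numbered rats mostly share a code series, and the part of the number apart from the code series was not tested. With the replicate block, 1 factor was lower at an unadjusted p up to 0.05, since Eif1ad had 0.0760 (limma), while 1499 of all genes passed it, against 1205 without the block.

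Some fold changes near 0 turned sign. Median centring lowers every gene alike, so genes just above 0 cross it: Eef1a1 had -0.018, Eif4a2 -0.060 and Eef1b2 -0.037. With the mean of probe sets Eif4g3 had 0.40, Eef2 0.024, Eif4a2 -0.021, Eef1a2 0.28 and Eif4e 0.044. In the higher code series Eef1a1 had -0.052, Eif4a2 -0.11, Eif4g1 0.020, Eif4ebp2 0.11, Eef1b2 -0.016 and Eef1akmt2 0.31. Array weights gave Eif4ebp2 0.0012. Without aged rats 2 and 6 together Eif4ebp2 had 0.041, Eif5b 0.027 and Eif5a 0.00081. Leaving out 1 rat gave -0.066 to 0.051 for Eif4ebp2, -0.066 to 0.023 for Eif5b, -0.19 to 0.028 for Eef1akmt2, -0.017 to 0.035 for Eif4a2 and -0.082 to 0.0049 for Eif4e. The difference of Eif4ebp2 minus Eif4e was -0.021 under quantile normalization, -0.081 with the mean of probe sets, -0.11 in the lower code series and -0.069 to 0.13 with 1 rat left out. That of Eef1a1 minus Eef1a2 was -0.25 with the mean of probe sets and -0.042 in the higher code series, and that of Eif4g1 minus Eif4g2 was 0.10 in the higher code series. Eef2k minus Eef2 was 0.11 with the mean of probe sets. A planned pair of Eif5 with Eif1 was not run, because neither gene had a probe set of its own.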
